A study of Mus musculus with 4 samples.

Results

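The leptin receptor gene Lepr and 9 genes used to recognise or specify the stromal niche cells of bone marrow were followed here in adult mesenchymal stroma cells (MSCs). The 10 genes are Lepr, Foxc1, Foxc2, Ebf1, Ebf2, Ebf3, Prrx1, Prrx2, Nes and Grem1. They were taken by symbol, with no threshold on their values, and all 10 were found once among the 56980 genes of the count table. The cells came from 4 wild-type male mice of the strain C57BL/6J, kept inbred in-house, at 14 weeks of age. The sort took 100 MSCs per mouse by the presence of CD51 and PDGFRa and the lack of CD45, Ter119, CD31 and Sca1 on the surface. Full-length cDNA was made from polyadenylated RNA, and 1 library was sequenced from each mouse. All 4 libraries form one group, so no treatment, age or genotype is compared, and the values describe the level of each gene and its spread between mice. The sort used none of the 10 genes.

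In the bone marrow, the stromal cells that keep hematopoietic stem cells in place are a perivascular network of reticular cells, known for their long processes and for very high production of the chemokine CXCL12 and of stem cell factor. The leptin receptor is the surface protein by which these cells are usually marked, and leptin, made by fat cells, signals through it and the kinase JAK2 to STAT3. FOXC1, a forkhead transcription factor, and EBF1 and EBF3, members of the early B cell factor family, are known to keep these cells in the niche state and to hold back osteoblast genes. PRRX1 is a paired-related homeobox factor of limb and skeletal mesenchyme. Nestin is an intermediate filament protein used as a marker of perivascular stroma, and gremlin 1 is a secreted protein that binds and blocks bone morphogenetic proteins (BMPs).

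Of the 10 genes, Lepr stood highest, and Foxc1 came next by median but not by mean, where Grem1 did. Within the factor families Foxc1 was above Foxc2, Prrx1 above Prrx2, and both Ebf1 and Ebf3 above Ebf2 in every mouse. Expression was measured as TPM, in which each gene's count is corrected for its exonic length and a library is scaled to a sum of 1e+06. A gene was called expressed at a median TPM above 1 over the 4 mice. This was reached by 7 of the 10 genes, namely Lepr, Foxc1, Foxc2, Ebf1, Ebf3, Prrx1 and Grem1, where 22.9% of the 52125 genes with a known length passed. Among the 21922 protein-coding genes with a length, 44.2% passed, which is also the background for the gene lists further on. The same 7 genes exceeded 1 TPM in every mouse, which 15.4% of all genes with a length did. Nes lay just under the cutoff, Ebf2 was detected in 1 mouse, and Prrx2 was detected in none. In libraries of pooled cells, fewer cells of a type and less RNA per cell cannot be told apart.

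**Figure D1:**
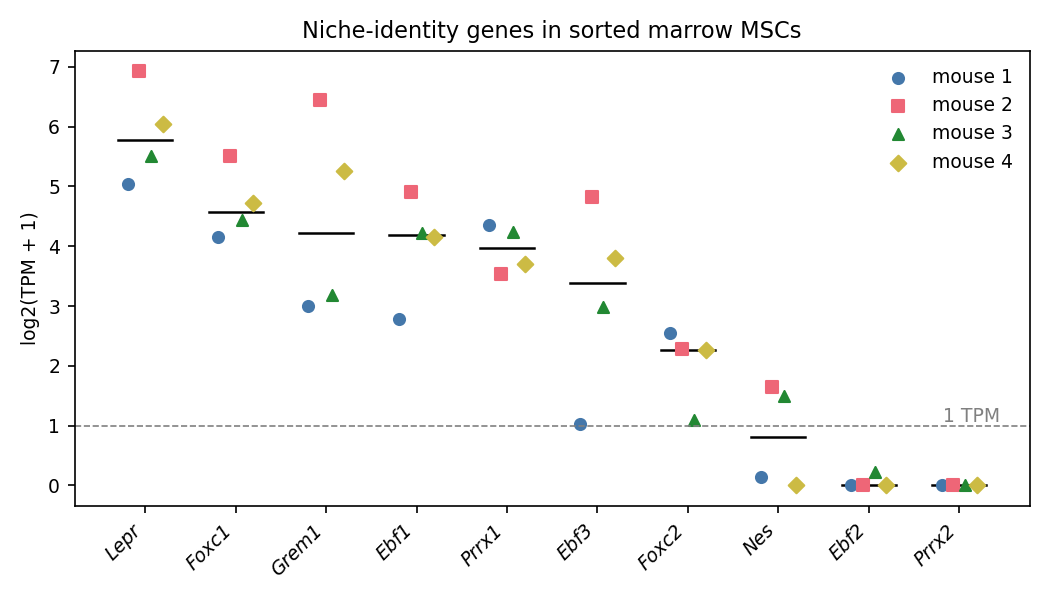
Level of the 10 genes in each of the 4 mice, as log2(TPM + 1) on the y axis, with the genes on the x axis ordered by median. Points are mice, the horizontal bar is the median over mice, and the dashed line marks 1 TPM. Lepr lies highest, 7 genes lie above the dashed line in every mouse, and Prrx2 is at 0 throughout.

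The promoters of 5 of these genes are shown first, because 4 of them, Lepr, Foxc1, Ebf3 and Grem1, took the same order over the mice as described further on, and Prrx1 went the other way. The sequences are those of RefSeq on GRCm38.p6. Each runs 5' to 3' on the strand of its gene, from 250 bases before the annotated start to 50 bases after it. Lepr lies at chr4:101717157-101717456 on the plus strand, Foxc1 at chr13:31806396-31806695 on the plus strand, Ebf3 at chr7:137314396-137314695 on the minus strand, Grem1 at chr2:113758599-113758898 on the minus strand and Prrx1 at chr1:163313601-163313900 on the minus strand. Capitals mark a match to the palindromic core of EBF sites, CCCNNGGG, in Ebf3 and Grem1, and to a homeodomain core, TAATTA, in Prrx1.
Lepr: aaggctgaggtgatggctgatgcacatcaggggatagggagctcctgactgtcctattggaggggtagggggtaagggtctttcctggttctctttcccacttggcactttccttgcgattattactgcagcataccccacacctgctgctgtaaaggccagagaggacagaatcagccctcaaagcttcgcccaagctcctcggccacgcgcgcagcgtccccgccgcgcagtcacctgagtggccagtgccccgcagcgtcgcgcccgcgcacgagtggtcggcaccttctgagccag
Foxc1: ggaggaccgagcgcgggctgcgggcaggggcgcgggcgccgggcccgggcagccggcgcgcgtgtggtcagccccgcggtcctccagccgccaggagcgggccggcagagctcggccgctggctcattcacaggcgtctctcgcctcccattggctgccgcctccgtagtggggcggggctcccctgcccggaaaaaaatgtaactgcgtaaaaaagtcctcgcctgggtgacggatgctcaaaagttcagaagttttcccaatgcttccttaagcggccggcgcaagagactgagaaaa
Ebf3: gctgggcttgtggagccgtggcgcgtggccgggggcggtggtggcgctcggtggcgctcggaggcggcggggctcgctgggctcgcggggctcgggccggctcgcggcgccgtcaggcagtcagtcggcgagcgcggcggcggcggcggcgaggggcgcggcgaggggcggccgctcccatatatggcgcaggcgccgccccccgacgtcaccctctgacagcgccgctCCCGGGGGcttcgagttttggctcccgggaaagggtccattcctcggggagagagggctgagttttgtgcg
Grem1: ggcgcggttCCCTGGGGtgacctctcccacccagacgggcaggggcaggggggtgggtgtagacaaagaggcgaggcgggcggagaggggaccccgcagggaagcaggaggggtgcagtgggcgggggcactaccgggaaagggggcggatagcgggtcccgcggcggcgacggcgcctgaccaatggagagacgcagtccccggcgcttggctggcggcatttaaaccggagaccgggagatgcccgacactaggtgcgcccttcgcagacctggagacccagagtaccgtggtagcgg
Prrx1: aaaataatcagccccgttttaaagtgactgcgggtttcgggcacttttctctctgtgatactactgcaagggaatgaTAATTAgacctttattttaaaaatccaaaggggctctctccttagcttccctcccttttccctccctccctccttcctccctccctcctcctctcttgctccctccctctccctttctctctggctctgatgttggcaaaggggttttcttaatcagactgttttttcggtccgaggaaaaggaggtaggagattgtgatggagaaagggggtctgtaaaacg

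The promoter table held 10 promoters for 8 of the 10 genes, with a second start for Lepr and for Ebf1. Both strands were searched for 3 motifs, the EBF core CCCNNGGG, the forkhead core TGTTTAC and the homeodomain core TAATTA, none of which overlapped another within these promoters. Ebf3 held the EBF core at positions -21 to -14 from its start, and Grem1 held it at positions -241 to -234. Prrx2, which had no counts, held it as well, at positions -199 to -192. Of all 32851 promoters of this length, 13.7% held that core. Its fixed letters are all C or G, and Ebf3, Grem1 and Prrx2 had the highest GC content of the 10. That share is over promoters of any GC content, so it is not a like background for them. Prrx1 held the homeodomain core at positions -173 to -168, and 5.29% of all promoters held it. The forkhead core, held by 3.65% of all promoters, was in none of the 10. No letters of the 3 motifs were found in the promoters of Lepr, Foxc1, Ebf1 or Nes. The GC content was high in Ebf3 (77.0%), Grem1 (70.7%) and Foxc1 (67.3%), against a median of 52.7% over all promoters. It was lower in the shown Lepr promoter (61.3%) and lowest of the 5 shown in Prrx1 (47.7%). Among the promoters not shown, Prrx2 had 70.3%, Nes 58.7% and the second Lepr start 54.3%. The starts of Ebf1 had 36.7% and 53.0%, the first of which was the lowest of all 10.

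Lepr encodes the leptin receptor and spans 19 exons at chr4:101717404-101815352 on the plus strand of GRCm38, the build of the annotation used for all gene positions given here. It had 31.9 TPM in mouse 1, 120.2 in mouse 2, 44.5 in mouse 3 and 64.8 in mouse 4, from 3956, 9426, 5422 and 4721 counts. The mean was 65.4 ± 39.0 TPM (SD, n = 4 mice), and its median of 54.7 TPM was higher than in 96.8% of genes whose length is known. The receptor gene was thus well above the cutoff in every mouse, with mouse 2 highest and mouse 1 lowest. The coefficient of variation between mice was 59.7%, and 84.7% of the genes with a median within 2-fold of that of Lepr had a smaller one. Gene counts do not separate the signalling form of the receptor from its short forms. Of the longest Lepr transcript, 2.76% had near-identical stretches in 4 other genes.

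Most genes of the wider leptin pathway were detected in the same libraries, which as pools do not place them in the same cells as Lepr. Of 15 listed genes of leptin receptor signalling, 14 passed the cutoff, against 44.2% of protein-coding genes with a length. In every mouse 9 were above 1 TPM. The gene that did not pass was Lep, the hormone itself, which had 0 counts in every library. Jak2, the kinase bound to the receptor, had 16.9 ± 10.6 TPM and Stat3, the factor it activates, 25.2 ± 9.74 TPM (SD, n = 4). Socs3, a feedback inhibitor that is itself a STAT3 target, had 202 ± 158 TPM, with 141, 160.2, 433 and 74.6 TPM in mice 1, 2, 3 and 4. Socs3 was thus highest in mouse 3, whereas Lepr was highest in mouse 2. Leprot, which encodes a protein that limits receptor at the surface, had 101 ± 47.4 TPM. The median of the 15 genes' medians was 14.0 TPM, against 8.35 TPM over all genes past the cutoff and 0 over all genes with a length.

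Foxc1, a gene of 1 exon at chr13:31806633-31812476 on the plus strand, was second of the 10 by median, and Grem1 or Ebf1 took that place under 5 of 9 other settings. It had 16.8, 44.7, 20.6 and 25.3 TPM in mice 1, 2, 3 and 4, from 1726, 2905, 2079 and 1529 counts, with a mean of 26.8 ± 12.4 TPM (SD, n = 4). The order of the mice was that of Lepr, with mouse 2 highest and mouse 1 lowest. Its coefficient of variation of 46.2% was close to the median of 42.6% among genes of like level. Foxc2, the closest relative of Foxc1 and known from lymphatic and vascular development, likewise has 1 exon, at chr8:121116171-121118895 on the plus strand. It had 4.88, 3.86, 1.15 and 3.80 TPM, from 234, 117, 54 and 107 counts. Foxc2 was above 1 TPM in every mouse, with mouse 3 lowest, and its mean was 3.42 TPM, with a coefficient of variation of 46.6%. Foxc1 exceeded Foxc2 by 2.65 ± 0.81 in log2(TPM + 1) within a mouse (SD, n = 4), in 4 of 4 mice. The exact two-sided permutation test over the 4 mice gave p = 0.125, and p = 0.125 after Benjamini-Hochberg adjustment over the 7 comparisons made here, which is the smallest p that 4 mice allow. Such a design cannot pass a threshold of 0.05, so the size and the number of mice carry each of these comparisons.

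Among 45 forkhead genes, 14 passed the cutoff, against 44.2% of protein-coding genes with a length, and 19 had 0 counts in all 4 libraries. By median TPM, Foxc1 was second and Foxc2 ninth. The first was Foxs1, a forkhead gene known from perivascular and neural crest derived cells, with 0.0434, 106.8, 67.7 and 15.6 TPM in mice 1, 2, 3 and 4. Foxs1 thus ranged from near 0 to above Foxc1, whereas Foxc1 stayed within 2.66-fold between its lowest and highest mouse. Foxn3, a repressor of broad expression, came next with 18.4 ± 3.80 TPM (SD, n = 4). Foxo3 and Foxo1, which respond to insulin signalling, followed with 9.52 ± 3.11 and 8.16 ± 1.99 TPM.

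Ebf1 and Ebf3 both passed the cutoff and Ebf2 did not. Ebf1, with 16 exons at chr11:44617317-45008091 on the plus strand, had 5.86, 29.1, 17.6 and 16.8 TPM in mice 1, 2, 3 and 4, from 1005, 3156, 2960 and 1693 counts. Its mean was 17.3 ± 9.49 TPM (SD, n = 4). Ebf3, with 16 exons at chr7:137193673-137314445 on the minus strand, had 1.03, 27.3, 6.87 and 12.9 TPM, from 168, 2800, 1095 and 1233 counts, with a mean of 12.0 ± 11.3 TPM. Mouse 1 was lowest and mouse 2 highest for both genes, but Ebf3 spread far more, by 26.4-fold against 4.97-fold for Ebf1. Without mouse 2 the mean of Ebf3 was 6.94 TPM. The coefficient of variation of Ebf3 between mice was 93.7%.

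Ebf2, known from brown fat and from immature stromal progenitors, had 0 counts in mice 1, 2 and 4 and 20 counts, or 0.167 TPM, in mouse 3. In the libraries without counts, 3 counts would have given between 0.0246 and 0.0419 TPM. On that floor Ebf1 was at least 238-fold, 747-fold and 401-fold higher than Ebf2 in mice 1, 2 and 4, and it was 105 times Ebf2 in mouse 3. Within a mouse, Ebf1 exceeded Ebf2 by 3.96 ± 0.88 and Ebf3 exceeded Ebf2 by 3.10 ± 1.62 in log2(TPM + 1), each in 4 of 4 mice (exact permutation test, p = 0.125 before and after adjustment). Ebf2 was thus below both relatives in every mouse.

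Ebf1 was above Ebf3 in 4 of 4 mice, by an amount that varied. Their difference in log2(TPM + 1) was 1.75 in mouse 1, 0.09 in mouse 2, 1.24 in mouse 3 and 0.35 in mouse 4, with a mean of 0.86 ± 0.77 in favour of Ebf1 (SD, n = 4; exact permutation test, p = 0.125 before and after adjustment). The 2 genes were thus near equal in mice 2 and 4 and apart in mice 1 and 3. As a ratio of TPM, Ebf1 was 5.66, 1.07, 2.56 and 1.30 times Ebf3. The mean difference was no larger than its SD when mouse 1 was left out (0.56 ± 0.60), when mouse 3 was left out (0.73 ± 0.89) and when the longest transcript served as gene length (0.74 ± 0.85). Ebf3 shares 3.85% of its exonic bases with the antisense gene Gm45278, which had at most 1 count in a library, and Ebf2 shares 6.12% with the antisense gene Gm10860, which had 0. The counting named no strand and no option to count a pair for more than 1 gene. Pairs on the shared bases may therefore be missing from both genes, so the low counts of these partners do not show their level.

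Ebf1 is also the factor that specifies B cells, so B-lineage markers were read beside it. Of 7 markers none passed the cutoff, and Cd79b, Ms4a1 and Igll1 were at 0 counts in all 4 libraries. The summed level of the 7 was 0, 0.0102, 3.62 and 2.19 TPM in mice 1, 2, 3 and 4. The sum was at or near 0 in mice 1 and 2, which had the lowest and the highest Ebf1. It was higher in mice 3 and 4, which had Ebf1 in between. The part of B cells in the Ebf1 values was not tested. Ebf4, the remaining family member, had 0, 0, 3.34 and 2.93 TPM. The zinc finger proteins that bind EBF factors, Zfp423 and Zfp521, had 5.34, 3.33, 0.392 and 0.449 TPM and 4.71, 0.563, 1.58 and 0.275 TPM, respectively. Of the 6 genes in the EBF list, 5 passed the cutoff, all but Ebf2.

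Prrx1, with 3 exons in its longest transcript at chr1:163245119-163313710 on the minus strand, had 19.4, 10.6, 18.0 and 12.0 TPM in mice 1, 2, 3 and 4. These came from 3779, 1301, 3433 and 1374 counts, with a mean of 15.0 ± 4.35 TPM (SD, n = 4). Prrx1 was the steadiest of the 7 expressed genes. Its coefficient of variation was 29.0%, and 23.2% of the genes of like level had a smaller one. It was lowest in mouse 2, where Lepr, Foxc1, Ebf1, Ebf3 and Grem1 were highest. Prrx2, its relative at chr2:30834972-30881251 on the plus strand, had 0 counts in every library, where 3 counts would have given between 0.0870 and 0.148 TPM. Prrx1 was at least 223-fold, 76.8-fold, 203-fold and 81.2-fold higher than Prrx2 in mice 1, 2, 3 and 4. Their difference in log2(TPM + 1) was 3.96 ± 0.40, in 4 of 4 mice (exact permutation test, p = 0.125 before and after adjustment). With Prrx2 at 0 throughout, no other direction was possible, so the test adds nothing to the counts. The mean difference was 1.97 with 5 added to TPM instead of 1, and 7.19 with 0.1 added.

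Of 16 paired-related and limb homeobox genes, 10 passed the cutoff, against 44.2% of protein-coding genes with a length. Prrx1 was not the highest of them. Dlx5 and Dlx3, distal-less factors of osteoblast differentiation, had 186 ± 86.4 and 113 ± 24.4 TPM (SD, n = 4), and Shox2, a factor of proximal limb growth, had 62.3, 125, 121 and 124 TPM in mice 1, 2, 3 and 4. The level of Prrx1 was thus well below those of Dlx5, Dlx3 and Shox2 in the same libraries. The ratio of Prrx1 to Sp7, the factor osterix of the osteoblast lineage, stayed within 1.39-fold over the mice, at 0.0572, 0.0669, 0.0704 and 0.0795. This ratio was chosen after its values were seen and carries no test.

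Nes, which encodes nestin and lies at chr3:87971078-87980451 on the plus strand, was present in part of the libraries. It had 0.106, 2.12, 1.80 and 0 TPM in mice 1, 2, 3 and 4, from 12, 151, 200 and 0 counts. Mice 2 and 3 were above 1 TPM and mice 1 and 4 were below it, so that the median of 0.955 TPM fell just short of the cutoff. The mean was 1.01 ± 1.11 TPM (SD, n = 4), so that Nes would pass by its mean, but that mean was 0.637 TPM without mouse 2 and 0.741 TPM without mouse 3. Lepr exceeded Nes by 5.06 ± 0.84 in log2(TPM + 1), in 4 of 4 mice (exact permutation test, p = 0.125 before and after adjustment). As a ratio of TPM, Lepr was 300.1 times Nes in mouse 1, 56.8 times in mouse 2 and 24.7 times in mouse 3, and at least 1432-fold higher in mouse 4.

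Nestin is also made by endothelial cells, pericytes and glia. Of 6 endothelial markers none passed the cutoff, with a summed level between 0.0465 and 1.28 TPM and with Cdh5, Kdr and Tie1 at 0 in all 4 libraries. Of 7 markers of pericytes and smooth muscle 3 passed, with Acta2 and Mcam at 0, and their summed level was 3.18, 31.3, 14.3 and 16.7 TPM in mice 1, 2, 3 and 4. Of 4 Schwann cell markers only S100b passed. The pericyte sum, like Nes, was highest in mouse 2 and, unlike Nes, was lowest in mouse 1. In mouse 2 it was mostly Rgs5, at 29.1 TPM. The other markers that passed, Cspg4 and Notch3, were lowest in mouse 2, at 0.558 and 0.0778 TPM. The part of pericytes in the Nes values was not tested. Of 8 genes for filament proteins that partner nestin or share its kind, 4 passed, against 44.2% of protein-coding genes with a length. Vim, the vimentin with which nestin assembles, had 147 ± 52.1 TPM (SD, n = 4), and Des, desmin, had 0, 1.58, 3.81 and 0 TPM.

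Grem1, with 2 exons at chr2:113746164-113758646 on the minus strand, had the largest coefficient of variation of the 7 expressed genes. It had 6.97, 86.4, 8.11 and 37.1 TPM in mice 1, 2, 3 and 4, from 509, 3989, 581 and 1590 counts. Mice 2 and 4 were high and mice 1 and 3 were low, with a 12.4-fold range. The mean was 34.7 ± 37.2 TPM (SD, n = 4), and without mouse 2 it was 17.4 TPM. That coefficient was 107%, and 97.8% of the genes of like level had a smaller one. Lepr exceeded Grem1 by 1.41 ± 0.91 in log2(TPM + 1), in 4 of 4 mice (exact permutation test, p = 0.125 before and after adjustment). The difference was 0.47 in mouse 2 and 0.79 in mouse 4, and 2.04 and 2.32 in mice 1 and 3. The gap between receptor and antagonist was thus narrow where Grem1 was high. Of the longest Grem1 transcript, 4.19% had near-identical stretches in 3 other genes.

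**Figure D2:**
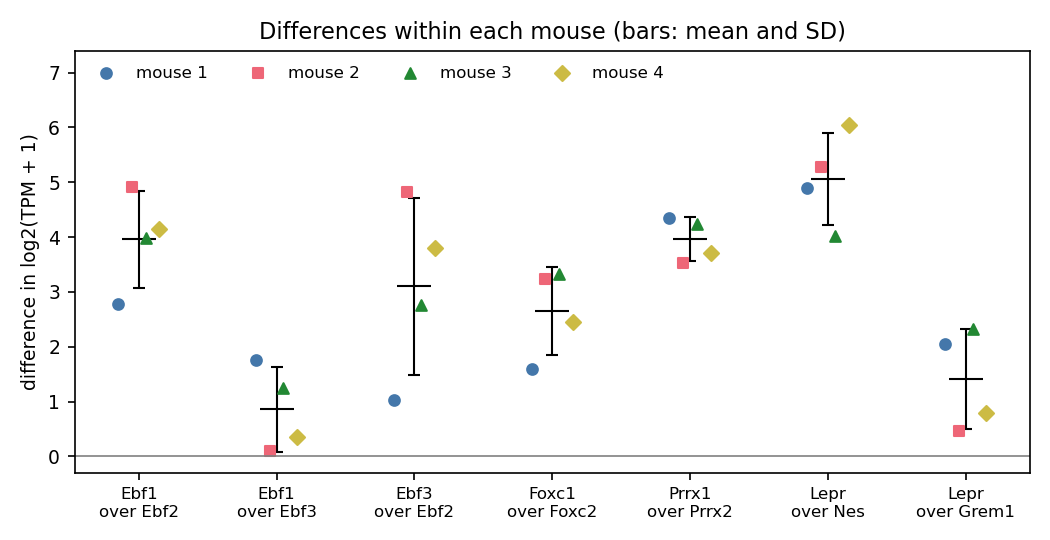
Differences in log2(TPM + 1) within each mouse for the 7 pairs compared, first gene minus second. Points are mice, and bars are the mean and SD over 4 mice. Every point lies above 0, and Ebf1 over Ebf3 comes nearest to 0, with 0.09 in mouse 2.

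Other BMP antagonists were expressed beside Grem1. Of 14 listed secreted antagonists, Grem1 among them, 9 passed the cutoff, against 44.2% of protein-coding genes with a length. Nog, noggin, had counts in mouse 1 only, at 5.83 TPM. Fstl1, a follistatin-like protein, had the highest median of the list, with a mean of 179 ± 103 TPM (SD, n = 4). Fst, follistatin, which binds activins and BMPs, had 1.59, 32.2, 4.30 and 15.6 TPM in mice 1, 2, 3 and 4, and Chrdl1, chordin-like 1, had 12.2, 45.4, 9.39 and 19.8 TPM. In both, mice 2 and 4 were above mice 1 and 3, as for Grem1. Grem1, Fst and Chrdl1 were the 3 of the 9 antagonists past the cutoff with that split, against 12.1% of all genes past it. The split was read off Grem1 and other members, so this count carries no test. Fstl1 was highest in mouse 3. Of 8 BMP ligands and receptors 7 passed. Bmp4 was the highest ligand listed, with 41.6 ± 19.2 TPM, and the receptors Bmpr1a and Bmpr2 had 9.22 ± 5.39 and 6.51 ± 4.17 TPM.

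Ordered by median TPM, the genes ran Lepr, Foxc1, Grem1, Ebf1, Prrx1, Ebf3, Foxc2, Nes, Ebf2 and Prrx2. Of the 9 pairs of neighbours in that order, only Lepr over Foxc1 differed by more than the SD of its within-mouse differences, by 1.17 ± 0.24 in log2(TPM + 1). The middle of the order was not resolved. Grem1, Ebf1 and Prrx1 each lay above and below their neighbours in different mice. With the longest transcript as gene length, or with no length correction, Ebf1 and Prrx1 moved ahead of Foxc1 and Grem1.

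The members spread between mice in a shared way. Mouse 2 was highest and mouse 1 lowest for 5 of the 7 expressed genes, namely Lepr, Foxc1, Ebf1, Ebf3 and Grem1, against 9.56% of the 11948 genes past the cutoff. This pattern was read off the members' own values and was then counted over all genes, so it is a description and carries no test. Mice 2 and 4 were both above mice 1 and 3 for 4 of the 7, Lepr, Foxc1, Ebf3 and Grem1, against 12.1% of those genes. They were both below for 1 of the 7, Prrx1, against 27.6%. The 4 former genes followed the full order of mouse 2, 4, 3 and 1, which 3.98% of genes past the cutoff did. For each expressed gene the highest and the lowest mouse stayed the same under TMM scaling, a common upper quartile and CPM (counts scaled to 1e+06 without a length).

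**Figure D3:**
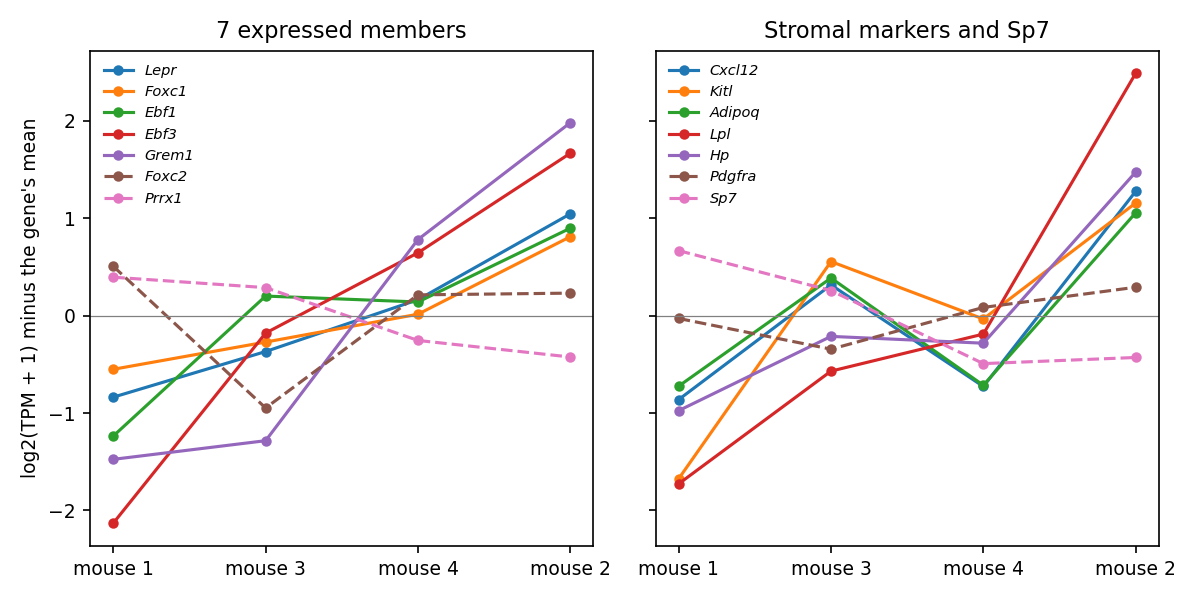
Level of each gene in a mouse minus that gene's mean over the 4 mice, in log2(TPM + 1), for the 7 expressed genes (left) and for 6 stromal markers and Sp7 (right). Mice on the x axis are placed in the order of Lepr, and lines join the values of a gene and stand for no sequence in time. Lepr, Foxc1, Ebf3 and Grem1 rise across the panel while Prrx1 falls, and on the right Cxcl12, Kitl, Adipoq, Lpl, Hp and Pdgfra are likewise highest in mouse 2 while Sp7, a single osteoblast marker that does not stand for the summed osteoblast markers, is highest in mouse 1.

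Stromal markers outside the 10 genes moved in part with them. All 15 listed markers of CXCL12-abundant reticular cells passed the cutoff, and all 15 were highest in mouse 2, against 26.1% of all genes past it. Of them, 12 were also lowest in mouse 1, against 9.56%. The split of mice 2 and 4 above mice 1 and 3 was held by 3 of the 15, against 12.1%. The pattern was read off the members, and the list was chosen with earlier results of these data known. These counts are thus a description and carry no test. Their summed level was 2432, 11791, 4967 and 3027 TPM in mice 1, 2, 3 and 4. Cxcl12 had 983, 4329, 2224 and 1079 TPM. Mouse 4 thus came above mouse 3 for Lepr and below it for Cxcl12, and the ratio of Lepr to Cxcl12 was 0.0325, 0.0278, 0.0200 and 0.0601. The 9 osteoblast markers all passed as well and summed to 220886, 288477, 216562 and 329590 TPM, far above the stromal sum in every mouse and higher in mice 2 and 4. They did not move as one. In mice 2 and 4 both, 2 of the 9, Bglap and Bglap2, were above mice 1 and 3, and 3 were below, among them Sp7 with 339, 158, 255 and 151 TPM. The parts that the makeup of the sorted cells and the state of each cell had in these values cannot be told apart.

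Other properties of the libraries went with the same split. The sequencing depth was 43545349 and 42747050 counts in mice 1 and 3, and 26050230 and 22738604 in mice 2 and 4. Haemoglobin and other erythroid transcripts summed to 4885 and 1670 TPM in mice 1 and 3 and to 35.0 and 351 TPM in mice 2 and 4. The Sca1 gene Ly6a, an antigen the sort excluded, had 0.0472 and 0 TPM in mice 1 and 3 and 8.95 and 11.6 TPM in mice 2 and 4. The sample codes also run close for mice 1 and 3 and for mice 2 and 4, but the labels name no batch. The part of each of these in the order of the mice was not tested. The antigens of the sort were present, with Pdgfra at 39.8 ± 7.29 TPM and Itgav, the CD51 gene, at 15.7 ± 2.51 TPM (SD, n = 4), and Ptprc, the CD45 gene, was at most 0.264 TPM.

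**Figure D4:**
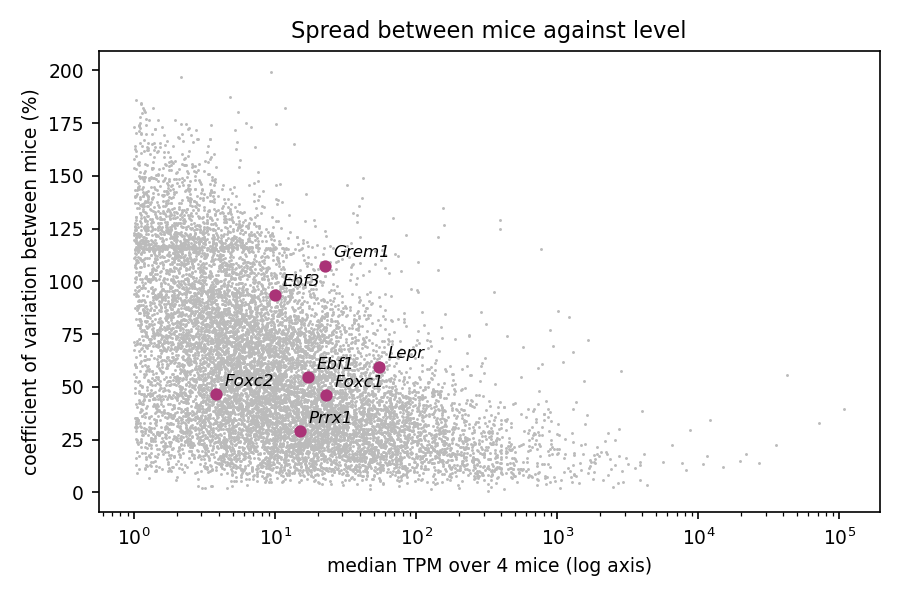
Coefficient of variation between the 4 mice (y axis, in percent) against the median TPM (x axis, log scale) for the 11948 genes past the cutoff, in grey, with the 7 expressed members in purple. Grem1 (107%) and Ebf3 (93.7%) lie in the upper part of the cloud at their level, and Prrx1 (29.0%) lies in the lower part.

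The ratio of Lepr to Foxc1 was the steadiest of those between Lepr and a member. It was 1.90, 2.69, 2.16 and 2.56 in mice 1, 2, 3 and 4, with an SD of 0.23 on the log2 scale. The ratio of Lepr to Prrx1 ran from 1.64 in mouse 1 to 11.4 in mouse 2, with an SD of 1.24. Foxc1 thus followed the receptor gene more closely over these mice than Prrx1 did. The steadiest ratio was picked from the values themselves and carries no test.

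Likeness to Lepr was measured over all genes as the root mean square (RMS) distance between the profiles over the 4 mice, after each gene's mean log2(TPM + 1) was taken off. Among 4803 protein-coding genes with a median above 10 TPM, Foxc1 ranked 14 with a distance of 0.205, Ebf1 107 with 0.356, Grem1 1648 with 0.791 and Prrx1 2943 with 1.03. Ebf3, below that level, had a distance of 0.763, so it shared the order of the mice with Lepr but not the size of the differences. The 5 genes nearest to Lepr were Slc17a5 (0.119), a lysosomal sialic acid transporter, Synj2bp (0.147), a mitochondrial outer membrane protein, Thoc2 (0.161), of the mRNA export complex, Lsm1 (0.169), of the mRNA decay machinery, and Mrps12 (0.180), of the mitochondrial ribosome. Slc17a5 had 9.42, 30.6, 12.7 and 16.5 TPM in mice 1, 2, 3 and 4. The measure rests on 4 mice that the genes share, so many genes lie near any profile. Leaving out 1 mouse moved Foxc1 to rank 42 without mouse 1, 159 without mouse 2, 102 without mouse 3 and 57 without mouse 4.

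**Figure D5:**
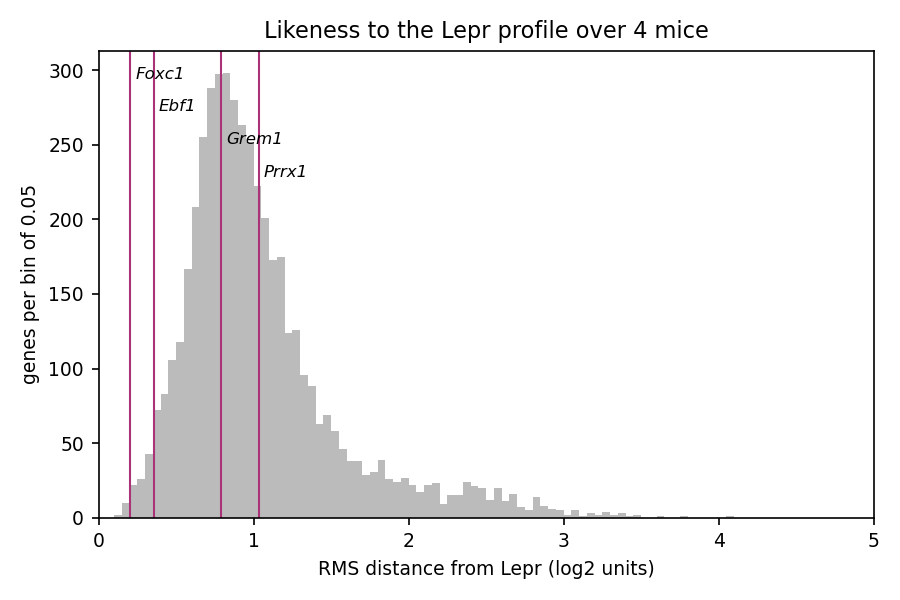
Distribution of the RMS distance from Lepr (x axis, log2 units) over 4803 protein-coding genes, as genes per bin (y axis), with 4 members drawn as vertical lines. Foxc1 (0.205) and Ebf1 (0.356) lie in the left tail, and Grem1 (0.791) and Prrx1 (1.03) lie within the bulk.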

How the data were processed

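The deposited values are raw counts per Ensembl gene, in 1 column for each of the 4 libraries. Per the labels and the study's methods, read pairs were aligned to GRCm39 with STAR and uniquely mapped pairs were counted on exons with featureCounts. The submitters' processing notes name STAR 2.7.10 and Subread 1.6.5. No strand option is given.

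Each count was divided by the length of the gene's merged exons in GENCODE M21 on GRCm38 and scaled to TPM in Python 3.11.15 with numpy 2.4.6 and pandas 2.3.3. These lengths are not from the build of the counts, so TPM values shift in proportion where the exon models differ. No length was found for 4855 genes, which were left out. Totals were between 22738604 and 43545349 counts. Floors of 3 counts cover counting error only, since PCR copies are not independent molecules and no molecular identifiers are described.

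Differences in log2(TPM + 1) within a mouse were tested by exact permutation, flipping signs over mice, two-sided and adjusted over 7 comparisons by Benjamini-Hochberg. All 10 members, wider lists and the 5 protein-coding genes nearest to Lepr above a median of 10 TPM were named. The 10 genes and all lists were chosen with earlier results of these data known. Near-identical stretches were searched with BLAST 2.17.0 at 95% identity over at least 100 bases. TMM factors came from edgeR 4.0.16 in R 4.3.3. The results were recomputed with the longest transcript as length, without length, with other scalings, pseudocounts of 0.1 and 5, a cutoff of 5 TPM, the mean over mice, a minimum of 10 counts and leaving out each mouse. The code was tested on simulated data.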

Additional observations from a re-analysis of the deposited data

Results flagged for a closer look

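Of 78 values examined in the 4 mice, 8 had 1 mouse apart from the other 3 by Dixon's criterion, which compares the gap to the nearest mouse with the whole range and was set at its 95% critical value. Chance gives about 1 in 20, or 3.9 of 78. Of the 10 genes only Ebf2 was among the 8, with a gap of 1 of the range, because mouse 3 held all 20 of its counts. Mouse 2 stood high for the stromal markers Lpl (0.892) and Hp (0.844) and for the pericyte marker Rgs5 (0.899), which had 0, 29.1, 0 and 2.94 TPM in mice 1, 2, 3 and 4. Mouse 2 also had fewer detected genes, 16109 against 18683 to 18907 (0.920). Mouse 1 stood low for Shox2 (0.928). Mouse 3 stood high for the summed macrophage markers (0.925), of which only Cd68 had counts, and mouse 4 for the leukocyte marker Ptprc (0.963).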

How the results depend on the processing

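The 7 differences between genes within a mouse were recomputed under 11 alternatives each, and all 77 kept their direction. Scalings and pseudocounts keep the sign within a mouse, and all 4 mice had the same sign, so leaving 1 out keeps it too. Only the changes of gene length could have reversed a direction. The mean difference of Ebf1 over Ebf3 ranged from 0.53 to 1.11, and that of Lepr over Nes from 3.41 to 6.73. The number of expressed members was between 6 and 8 under 12 alternatives. Foxc2 was lost at a cutoff of 5 TPM, and Nes was gained with CPM (counts scaled by library total without a length), with a protein-coding denominator, with the mean over mice and without mouse 1 or mouse 4. The number above the cutoff in every mouse was between 5 and 7. It lost Foxc2 with the longest transcript as length, Ebf3 with a common upper quartile, and both at 5 TPM. The rank of Foxc1 by distance from Lepr, whose alternatives were chosen after seeing the data, was 13 to 15 under 6 settings and between 42 and 159 without 1 mouse. Libraries could not be paired between groups, because all form one group and replicate numbers have no other group to pair with. The differences between genes were taken within each mouse.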
